A study of Mus musculus with 6 samples.

Results

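The interferon-inducible GTPases described here are 10 mouse genes of the immunity-related GTPase (IRG) and guanylate-binding protein (GBP) families, chosen by name. They are Iigp1, Tgtp1, Tgtp2, Irgm1, Irgm2 and Igtp of the IRG family and Gbp2, Gbp3, Gbp6 and Gbp7 of the GBP family. Rows of the count table were matched to 9 of the 10 through their Ensembl IDs, out of 28786 IDs in all, and Gbp6 was not analysed here by name. Whether a further row, listed as Gm43302 and overlapping Gbp6, carries an older ID of Gbp6 was not settled, and it is described apart from the members. The 9 matched genes all passed the filter on low counts, with 111 to 7016 counts per gene and library. RNA was measured in haematopoietic stem cells (HSCs) from bone marrow of C57BL/6 wild-type mice, 6 to 8 weeks old, in 3 TMRM-high and 3 TMRM-low libraries, each from 1500 cells sorted as lineage-negative, Sca-1-positive, c-Kit-positive, CD48-negative and CD150-positive. TMRM is a dye that collects in mitochondria according to their membrane potential, and the comparison asks how HSCs with much of it differ in their RNA from HSCs with little. The labels do not say whether each library is from mice of its own, and the p-values then describe only how much these libraries spread, which may be technical.

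Interferons bind receptors on the cell surface and activate transcription factors that act at 2 kinds of DNA element, the interferon-stimulated response element (ISRE) and the gamma-activated site (GAS). IRG and GBP genes are among the genes that interferon, above all interferon gamma, induces most strongly in mouse cells. Their proteins are GTPases that gather on the vacuoles of intracellular parasites and bacteria and help to destroy them. Iigp1, Tgtp1 and Tgtp2 encode effector IRG proteins that coat such vacuoles, whereas Irgm1, Irgm2 and Igtp encode regulators that sit on the cell's own membranes and hold the effectors inactive. In mice, interferon drives resting HSCs into cycle, and Irgm1 is known to be needed for normal HSC self-renewal.

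The stretches before the annotated starts are shown because most members moved in the same direction and hold the letters of elements through which interferon acts. RefSeq windows on GRCm38.p6, each from 250 bases before to 50 bases after a start, were matched for 8 members, as 9 windows, since Gbp3 has 2. Capitals mark the ISRE letters, which are GAAA, any 2 bases and GAAA, or on the other strand TTTC, any 2 bases and TTTC. They also mark the GAS letters, which are TTC, any 3 bases and GAA. The 5 IRG stretches come first. That of Tgtp1 is chr11:48992279-48992358 and that of Tgtp2 is chr11:49064238-49064317, both on the minus strand. The stretch of Irgm1 is chr11:48871421-48871485, also on the minus strand. The stretches of Igtp, chr11:58199487-58199555, and Irgm2, chr11:58214878-58214957, lie on the plus strand.
Tgtp1: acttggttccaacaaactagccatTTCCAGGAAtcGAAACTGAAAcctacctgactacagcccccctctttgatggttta
Tgtp2: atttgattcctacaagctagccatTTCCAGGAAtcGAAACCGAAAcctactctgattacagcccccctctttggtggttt
Igtp: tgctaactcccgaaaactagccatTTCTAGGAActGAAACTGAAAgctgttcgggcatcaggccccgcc
Irgm2: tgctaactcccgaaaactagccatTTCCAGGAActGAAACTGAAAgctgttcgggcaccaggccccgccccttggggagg
Irgm1: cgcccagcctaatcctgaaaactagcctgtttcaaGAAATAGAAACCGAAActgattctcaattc

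The 3 GBP stretches are on the plus strand of chromosome 3, at chr3:142530248-142530327 for Gbp7, chr3:142559964-142560043 for Gbp3 and chr3:142620569-142620648 for Gbp2.
Gbp7: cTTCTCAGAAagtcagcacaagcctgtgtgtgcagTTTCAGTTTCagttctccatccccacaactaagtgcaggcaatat
Gbp3: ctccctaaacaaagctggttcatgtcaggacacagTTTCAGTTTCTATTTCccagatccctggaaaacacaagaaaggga
Gbp2: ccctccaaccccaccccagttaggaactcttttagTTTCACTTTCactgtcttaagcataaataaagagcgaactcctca

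The ISRE letters were found, on either strand, in 8 of the 9 member windows (88.9%), at least once for each of the 8 genes, and in 1131 of all 32851 windows (3.44%). In the 5 IRG genes they stood on the gene's own strand and in the 3 GBP genes on the other strand. Overlapping matches stood in Irgm1 and in one window of Gbp3. The GAS letters, which read the same on both strands, were in 5 of the 9 member windows (55.6%) and in 8.30% of all windows. A gap of 2 bases lay between a GAS match and the ISRE match after it in Tgtp1, Tgtp2, Igtp and Irgm2. A GAS match within 5 bases of an ISRE match, a measure chosen after these sequences were seen, was found in 12 of all 32851 windows (0.0365%), 4 of them those members. Among windows of genes that were lower in TMRM-high libraries, with the members left out, 51 of 642 (7.94%) held the ISRE letters. The share was 24 of 742 (3.23%) among genes that were higher and 346 of 11704 (2.96%) among genes that did not pass. Relatives of the members were not left out of these sets. Of the 9 windows of other IRG and GBP genes, whatever their call, 5 held the ISRE letters. These shares describe letters in the windows and do not show which of them bind a factor.

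**Figure D1:**
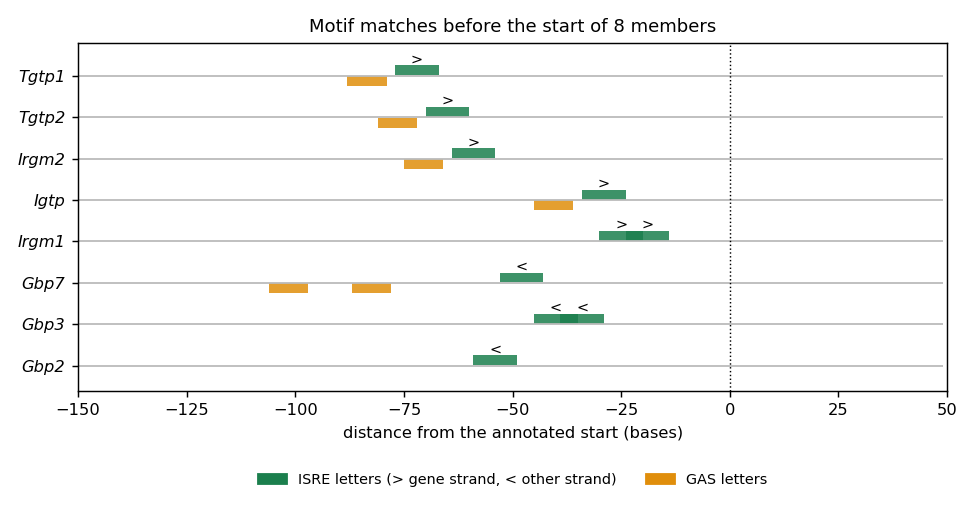
Positions of ISRE letters (green) and GAS letters (orange) in bases from the annotated start, for 8 members. Arrowheads give the strand of the ISRE letters. In the IRG genes Tgtp1, Tgtp2, Irgm2, Igtp and Irgm1 they point along the gene and in the GBP genes Gbp7, Gbp3 and Gbp2 against it, and GAS letters stand directly before them in 4 IRG genes.

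Of the 9 tested members, 8 were lower in TMRM-high than in TMRM-low libraries, none was higher and Gbp2 did not pass. All 6 IRG genes fell, and of the 3 GBP genes Gbp7 and Gbp3 fell. Over all 13662 tested genes 5.12% were lower, and 5.84% were higher, by the same test and threshold (edgeR's quasi-likelihood test, Benjamini-Hochberg adjusted p below 0.05 over all tested genes). The median log2 fold change, TMRM-high minus TMRM-low, was -1.33 over the 9 members and -0.032 over all tested genes. In the 8 genes that fell, every TMRM-high library lay below every TMRM-low library, which held for 17.0% of tested genes. These are bulk samples, so fewer cells that express a gene and less of its RNA per cell cannot be told apart.

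Library totals were 14270069 to 22070594 estimated counts in the TMRM-high and 15930495 to 18431567 in the TMRM-low libraries. The spread between TMRM-high libraries was much the smaller one. Chi-square per degree of freedom between libraries of a group, where counting noise alone gives about 1, was 3.98 to 6.74 in the TMRM-high and 46.0 to 51.4 in TMRM-low. Member counts are therefore given with the TMRM-high libraries as 3 replicates and, in a second fit, summed into 1 library, with the spread taken from the TMRM-low libraries alone and the lone TMRM-high sum assumed to vary like them. In that fit 3 of the 9 members were lower, namely Iigp1, Tgtp1 and Tgtp2, of 128 genes called in either direction. Without any 1 TMRM-high library 7 members were lower, and without any 1 TMRM-low library 8 were.

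**Figure D2:**
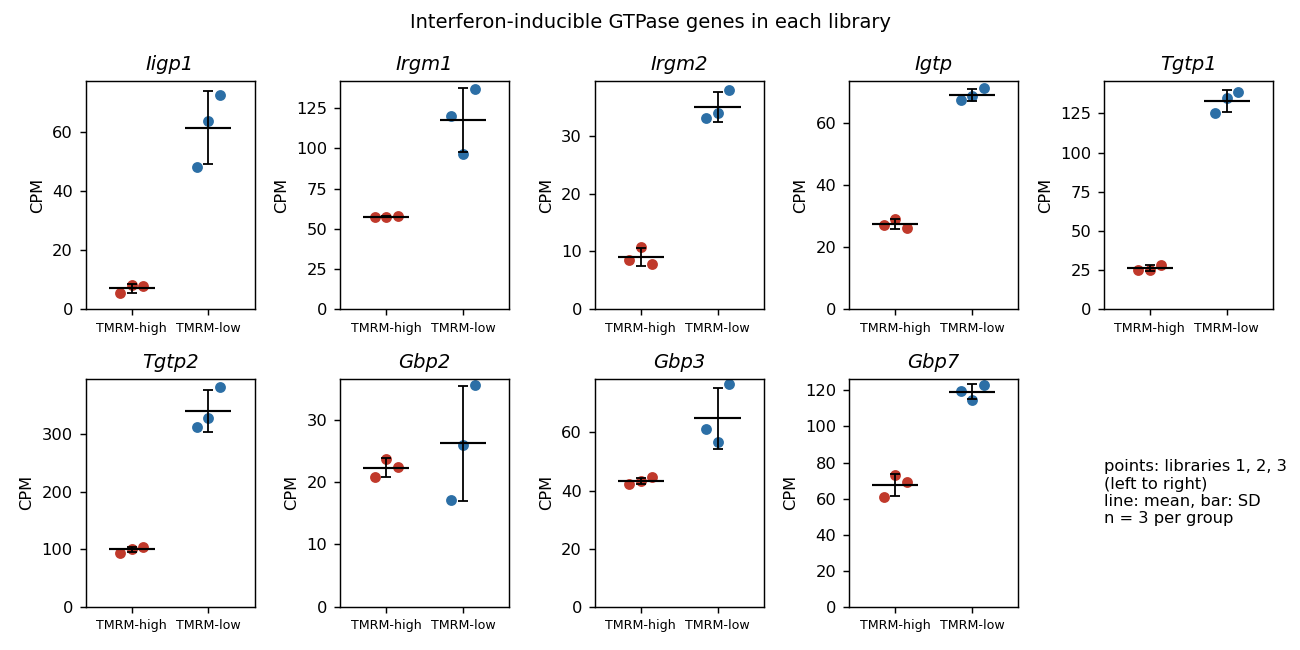
Level of each of the 9 matched members in CPM, TMRM-high libraries in red and TMRM-low libraries in blue, with points for libraries 1, 2 and 3, the mean as a line and the SD as a bar (n = 3 per group). The groups are apart in every gene except Gbp2, and the TMRM-low points of library 3 are the highest of their group in each gene.

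The effector genes Iigp1, Tgtp1 and Tgtp2 all fell, Iigp1 by the most of the 9 members. Iigp1, whose product coats the vacuole of Toxoplasma (ENSMUSG00000054072, chromosome 18, 60376027 to 60392634 on GRCm38, 3 exons in its longest coding transcript), had 5.35, 8.00 and 7.71 CPM in the TMRM-high libraries, against 48.1, 63.5 and 72.5 CPM in the TMRM-low libraries. CPM are counts per 1000000 counts of a library, with library sizes scaled by TMM. The highest TMRM-high value of Iigp1 was thus far below its lowest TMRM-low value. Its log2 fold change was -3.13 (SE 0.249, edgeR adjusted p = 0.000304).

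Tgtp1 (ENSMUSG00000078922, chromosome 11, 48985327 to 48994172) had 24.7, 25.2 and 28.2 CPM in TMRM-high libraries, against 125, 135 and 139 CPM in TMRM-low libraries. Its log2 fold change was -2.35 (SE 0.114, edgeR adjusted p = 2.66e-05). Tgtp2 (ENSMUSG00000078921, chromosome 11, 49057194 to 49064206), the neighbouring copy, had 94.3, 101 and 104 CPM in TMRM-high libraries, against 313, 327 and 382 CPM in TMRM-low libraries. Both copies were apart between the groups, and the log2 fold change of Tgtp2 was -1.77 (SE 0.0953, edgeR adjusted p = 5.65e-05).

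Tgtp1 and Tgtp2 are near-identical. Of the 31-base words in transcripts of Tgtp1, 83.2% occur in Tgtp2, and of those of Tgtp2 89.2% occur in Tgtp1, so the split of reads between them is uncertain. Counted as 1 gene they had 119, 126 and 132 CPM in TMRM-high libraries, against 438, 462 and 520 CPM in TMRM-low libraries, a log2 fold change of -1.91 (SE 0.0858, edgeR adjusted p = 2.09e-05). The ratio of Tgtp2 to Tgtp1 was 3.81, 4.0 and 3.67 in TMRM-high libraries and 2.50, 2.43 and 2.76 in TMRM-low libraries. The ratios did not overlap between the groups, and this difference was not tested.

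The regulator genes were lower as well. Irgm1 (ENSMUSG00000046879, chromosome 11, 48861968 to 48871683) had 57.5, 57.4 and 57.8 CPM in TMRM-high libraries, against 120, 96.7 and 137 CPM in TMRM-low libraries. Its TMRM-high values lay within 1 CPM of each other, whereas its TMRM-low values spread widely, and its log2 fold change was -1.03 (SE 0.139, edgeR adjusted p = 0.00382). In the fit with summed TMRM-high libraries its adjusted p was 0.26.

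Igtp, which encodes the regulator also called Irgm3 (ENSMUSG00000078853, chromosome 11, 58199556 to 58207591), had 27.2, 29.1 and 26.1 CPM in TMRM-high libraries, against 67.3, 68.6 and 71.2 CPM in TMRM-low libraries. The values of each group lay close together, and the log2 fold change was -1.33 (SE 0.130, edgeR adjusted p = 0.000732). Irgm2 (ENSMUSG00000069874, chromosome 11, 58199618 to 58222782) had 8.53, 10.7 and 7.85 CPM in TMRM-high libraries, against 33.0, 34.0 and 37.9 CPM in TMRM-low libraries. The groups were apart, and the log2 fold change was -1.95 (SE 0.220, edgeR adjusted p = 0.00148).

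The annotated spans of Igtp and Irgm2 overlap on the same strand, and 15.9% of the 31-base words of Igtp occur in Irgm2, so the split of reads between them is also uncertain. Counted as 1 gene, an alternative chosen after the data were seen, they had 35.7, 39.8 and 34.0 CPM in TMRM-high libraries, against 100.3, 103 and 109 CPM in TMRM-low libraries. That log2 fold change was -1.51 (SE 0.118, edgeR adjusted p = 0.000242). Summing the TMRM-high libraries ended the calls of both (adjusted p = 0.20 for Igtp and 0.22 for Irgm2).

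The 3 GBP members, all on chromosome 3, differed less than the 6 IRG members, and each has 11 exons in its longest coding transcript. Other GBP genes are described below, and a difference between the families was not tested. Gbp7, whose product takes part in assembling the phagocyte oxidase (ENSMUSG00000040253, chromosome 3, 142530342 to 142550149), had 60.9, 72.9 and 69.2 CPM in TMRM-high libraries, against 120, 115 and 123 CPM in TMRM-low libraries. The groups were apart and the log2 fold change was -0.82 (SE 0.105, edgeR adjusted p = 0.00288), although summing the TMRM-high libraries ended the call (adjusted p = 0.27).

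Gbp3 (ENSMUSG00000028268, chromosome 3, 142560026 to 142573209) had 42.4, 43.2 and 44.5 CPM in TMRM-high libraries, against 61.2, 56.7 and 76.7 CPM in TMRM-low libraries. The groups did not overlap, but the call was close to the threshold, with a log2 fold change of -0.58 (SE 0.151, edgeR adjusted p = 0.0483). The call of Gbp3 was lost when any 1 TMRM-high library was left out (adjusted p = 0.21, 0.21 and 0.19 without TMRM-high replicate 1, 2 and 3), with the TMRM-high libraries summed (adjusted p = 1.0), with total-count scaling (0.055), without a low-count filter (0.058) and with the replicate number as a block (0.094).

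Gbp2, recruited to Toxoplasma vacuoles in mouse cells (ENSMUSG00000028270, chromosome 3, 142620602 to 142638008), had 20.8, 23.7 and 22.4 CPM in TMRM-high libraries, against 17.1, 25.8 and 35.6 CPM in TMRM-low libraries. The groups overlapped, with TMRM-low libraries both below and above all TMRM-high libraries. Its log2 fold change was -0.23 (SE 0.281, edgeR adjusted p = 0.67), and without TMRM-low replicate 3 it was 0.058. Gbp2 carries the ISRE letters in the stretch shown above, as do the other members with a window.

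**Figure D3:**
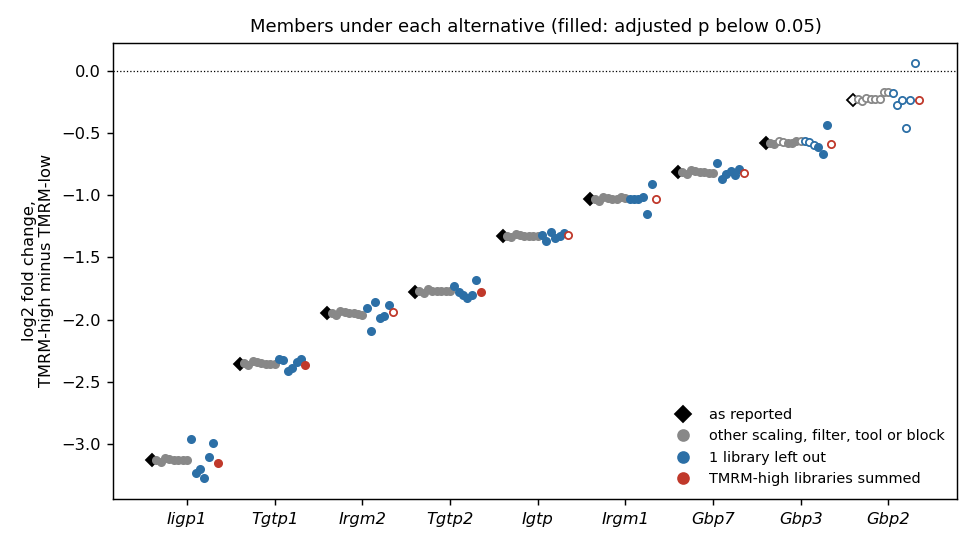
Log2 fold change (TMRM-high minus TMRM-low) of each member as reported (black diamonds), under other scalings, filters, tools or the block (grey), with 1 library left out (blue) and with the TMRM-high libraries summed (red). Filled points passed an adjusted p of 0.05. The values of the 8 members that fell all lie below 0, and those of Gbp2 on either side of it. With the summed libraries Iigp1, Tgtp1 and Tgtp2 alone are filled.

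Summed over the 6 IRG genes, the level was 218, 231 and 231 CPM in TMRM-high libraries, against 706, 725 and 839 CPM in TMRM-low libraries. For the 3 GBP genes the sums were 124, 140 and 136 CPM in TMRM-high libraries, against 198, 197 and 235 CPM in TMRM-low libraries. The IRG sum was 1.65 to 1.75 times the GBP sum in TMRM-high libraries and 3.56 to 3.67 times in TMRM-low libraries. These ranges did not overlap, and the difference between the families was not tested. Neither these ratios nor the shares that follow are scaled by transcript length, so each is compared only between the groups. Tgtp1 and Tgtp2 together made up 34.0% to 35.9% of the summed level of the 9 members in TMRM-high libraries and 48.4% to 50.1% in TMRM-low libraries.

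Levels can be set beside each other between genes only per length, and CPM per kilobase of the longest coding transcript was used. The places of Tgtp1 and Tgtp2 below rest on the uncertain split of reads between them, and so do those of Igtp and Irgm2. Tgtp2 was the most abundant member per kilobase in both groups, at 35.4 ± 1.70 CPM per kilobase in the TMRM-high and 121 ± 13.0 in TMRM-low libraries (SD, n = 3 each). In TMRM-high libraries Irgm1 (25.5 ± 0.0834), Gbp3 (16.2 ± 0.395), Igtp (13.6 ± 0.746) and Gbp7 (12.1 ± 1.10) followed. Below them came Tgtp1 (9.22 ± 0.667), Gbp2 (8.86 ± 0.591), Irgm2 (2.56 ± 0.426) and Iigp1 (2.25 ± 0.465). Neighbours in that order whose library values overlapped were Igtp and Gbp7, Tgtp1 and Gbp2, and Irgm2 and Iigp1.

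In TMRM-low libraries the order after Tgtp2 was Irgm1 (52.2 ± 8.89 CPM per kilobase), Tgtp1 (47.1 ± 2.45), Igtp (34.1 ± 0.998) and Gbp3 (24.2 ± 3.92). Gbp7 (21.2 ± 0.732), Iigp1 (19.7 ± 3.95), Gbp2 (10.4 ± 3.67) and Irgm2 (9.91 ± 0.745) came last. Library values overlapped between Irgm1 and Tgtp1, Gbp3 and Gbp7, Gbp7 and Iigp1, and Gbp2 and Irgm2. Tgtp1 and Iigp1 thus stood higher in the TMRM-low order than in the TMRM-high order. For Tgtp1 this rests on the uncertain split of reads with Tgtp2. With the union of all exons as length, Irgm1 was at 9.91 CPM per kilobase in the TMRM-high and 20.3 in TMRM-low libraries. That put Irgm1 at rank 5 in both orders, in place of rank 2. Iigp1 was then at 1.21 in the TMRM-high and 10.5 in the TMRM-low libraries, and it kept its place in both orders.

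**Figure D4:**
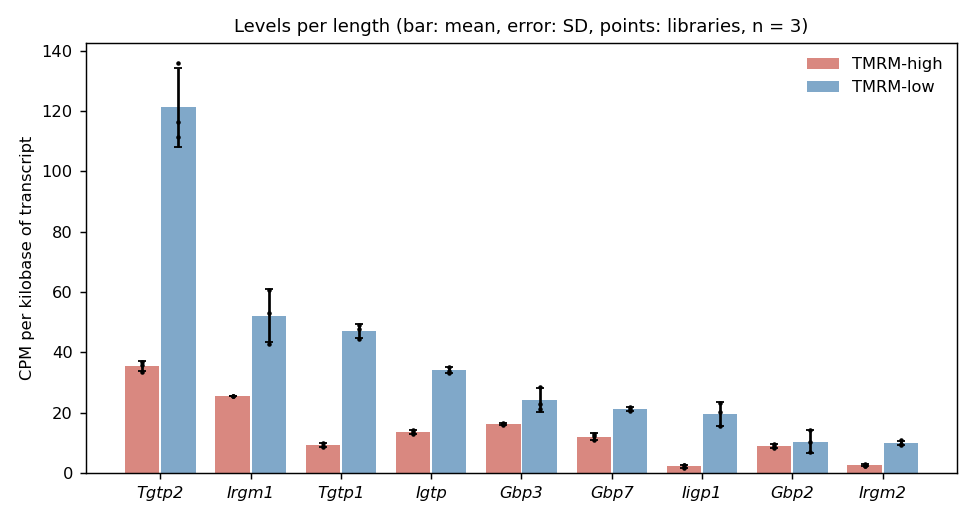
Level per length (CPM per kilobase of the longest coding transcript) of the 9 members, TMRM-high in red left of TMRM-low in blue, ordered by the TMRM-low mean. Bars are means, error bars SD and points libraries (n = 3). Tgtp2 is highest in both groups, and Irgm2 and Iigp1 are lowest in TMRM-high. The split of reads between Tgtp1 and Tgtp2, and between Igtp and Irgm2, is uncertain.

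TMRM-low replicate 3 had the highest TMRM-low value of each of the 9 members, whereas over all tested genes that library was the highest of its group for 33.4%. The ratio of the highest to the lowest TMRM-low library was 1.06 for Igtp, 1.07 for Gbp7 and 1.11 for Tgtp1, and reached 1.51 for Iigp1 and 2.08 for Gbp2. Without TMRM-low replicate 3 the 8 calls remained, with log2 fold changes such as -2.99 for Iigp1 and -1.68 for Tgtp2. Irgm1 was at -0.91 and Gbp3 at -0.44 without it.

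Of 22 other genes of both families and of the related very large interferon-inducible GTPases, 20 had a row and 18 were tested, of which 8 were lower in TMRM-high libraries, none was higher and 10 did not pass. That is 44.4% against the 5.12% of all tested genes that were lower. The median log2 fold change was -1.38. Ifi47, an IRG gene beside Tgtp2 on chromosome 11, had 69.9, 72.3 and 73.3 CPM in TMRM-high libraries, against 138, 155 and 143 CPM in TMRM-low libraries (log2 fold change -1.01, SE 0.0900, edgeR adjusted p = 0.000458). Its groups were well apart.

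Gm4951, an IRG-type gene near Iigp1 on chromosome 18, had 2.18, 3.03 and 3.40 CPM in TMRM-high libraries, against 16.6, 42.3 and 45.2 CPM in TMRM-low libraries (log2 fold change -3.60, SE 0.444, edgeR adjusted p = 0.00253). Gm4841 of the same cluster (-2.16), Gm12250, typed as a processed pseudogene in the annotation used (-2.28), and 9930111J21Rik2 (-0.82) fell too. Of the very large GTPase genes on chromosome 7, Gvin1 (-1.51), Gm4070 (-1.95) and Gm8995 (-0.56) fell. Gm8995 is typed as a transcribed unprocessed pseudogene in the same annotation. Gm4841, 9930111J21Rik2, Gvin1 and Gm4070 were not called when any 1 TMRM-high library was left out, and none of the 8 was when they were summed. The GBP genes Gbp4 (2.45, 3.39 and 3.54 CPM in TMRM-high, against 6.71, 10.8 and 5.77 CPM in TMRM-low libraries) and Gbp8 (0.817, 1.03 and 0.903 CPM in TMRM-high, against 7.29, 1.44 and 8.06 CPM in TMRM-low libraries) were low in counts and did not pass, although their groups did not overlap. Their log2 fold changes were -1.31 for Gbp4 and -2.60 for Gbp8. Gbp9 (-2.25), Gbp2b (-1.26) and Gbp11 (0.34) did not pass either. These GBP genes were named after their values were seen.

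**Figure D5:**
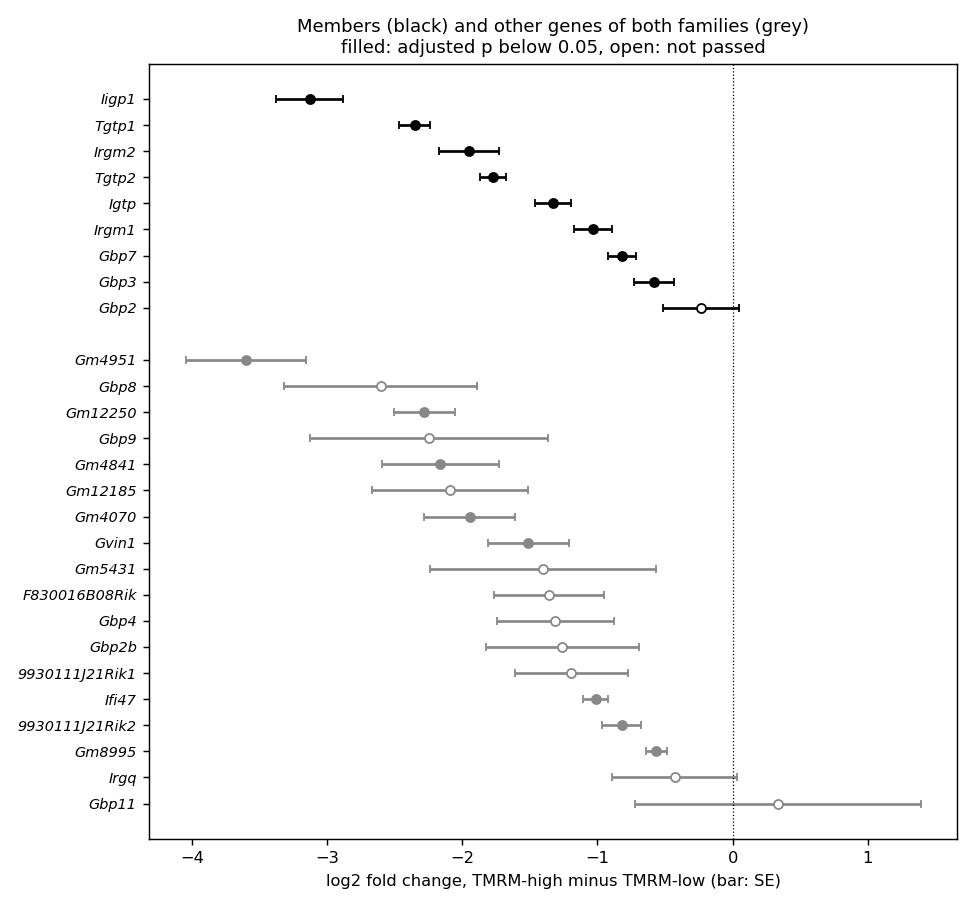
Log2 fold change, TMRM-high minus TMRM-low, with its SE for the 9 members (black, top) and the 18 tested other genes of both families (grey, bottom). Filled points passed an adjusted p of 0.05. In the grey set 8 points are filled, all left of 0, and Gbp11 lies right of 0.

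In the GBP cluster of chromosome 5, the row Gm43302 spans 105214907 to 105293695 and overlaps Gbp6 (105270702 to 105293698). Of its 31-base words 95.7% occur in transcripts of Gbp6, and 68.9% in those of Gbp10, so it stands for reads of several copies. It had 4.13, 6.31 and 6.73 CPM in TMRM-high libraries, against 30.9, 22.4 and 39.6 CPM in TMRM-low libraries. The groups did not overlap and the row fell (log2 fold change -2.44, SE 0.323, edgeR adjusted p = 0.00359), but not once the TMRM-high libraries were summed (adjusted p = 0.20). The row was chosen after its values were seen.

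The nearest tested coding genes outside the families, on either side of each member cluster, included none that was lower in TMRM-high libraries by the same test. Beside Irgm1, Tgtp1 and Tgtp2, Trim7 (9.76 kb away) had a log2 fold change of -0.64 (SE 0.918) and Btnl9 (101 kb away) one of 0.63 (SE 0.369). Beside Igtp and Irgm2, the mitochondrial ribosomal protein gene Mrpl22 (19.99 kb away) was at -0.23 (SE 0.212). On the other side of that pair 4930438A08Rik was at 4.29 (SE 1.36). Beside the GBP genes of chromosome 3, Pdlim5 was at -0.45 (SE 0.221) and Kyat3 at -0.92 (SE 0.318). Neither these nor Isoc1, as far as 1696 kb before Iigp1 (-0.34, SE 0.124), passed the test. Smim3, 81.6 kb after Iigp1, was higher (log2 fold change 1.02, SE 0.227, edgeR adjusted p = 0.0289). The call of Smim3 was lost when any 1 TMRM-high library was left out and when they were summed. Isoc1 was lower without TMRM-low replicate 3 (log2 fold change -0.44), Kyat3 was lower with DESeq2 (-0.92) and without TMRM-low replicate 2 (-1.15), and 4930438A08Rik was higher with DESeq2 (4.31), with voom (6.26) and without TMRM-low replicate 1, the single TMRM-low library in which it was counted. With standard errors of this size, a difference below the threshold does not show that a neighbour was unchanged.

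Of 23 interferon ligand, receptor and signalling genes, 21 were tested, of which 11 did not pass, 8 were lower and 2 were higher, with a median log2 fold change of -0.30. That is 38.1% lower and 47.6% called in either direction, against 5.12% and 11.0% of all tested genes. Irf7, a transcription factor gene that amplifies the interferon response, had 9.57, 8.98 and 8.96 CPM in TMRM-high libraries, against 75.9, 55.5 and 79.6 CPM in TMRM-low libraries, and kept its call in every alternative run, the summed libraries included. Irf8, a transcription factor gene of myeloid and dendritic cells that also acts at ISRE-type elements (-0.90, SE 0.0793), and Ifnar2, a subunit of the type I receptor (-0.63, SE 0.102), fell too. Summing the TMRM-high libraries ended the calls of Irf8 and Ifnar2, and Ifnar2 was not called without TMRM-high replicate 1 or 2.

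The 2 genes of this list that were higher, and Irf1 and Ifng, were named after their values were seen. Ifngr1, the ligand-binding chain of the interferon gamma receptor, had 212, 219 and 214 CPM in TMRM-high libraries, against 97.8, 138 and 148 CPM in TMRM-low libraries (log2 fold change 0.75, SE 0.146, edgeR adjusted p = 0.018). That call was lost when any 1 TMRM-high library was left out and when they were summed (adjusted p = 0.44). Irf1, which encodes a main activator of GBP genes, had 111, 114 and 122 CPM in TMRM-high libraries, against 123, 125 and 90.3 CPM in TMRM-low libraries. Those groups overlapped, and its log2 fold change was 0.041 (SE 0.136, edgeR adjusted p = 0.89).

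The interferon genes themselves were near the limit of detection. Ifnb1, which encodes interferon beta, had 18, 34 and 27 counts in TMRM-high libraries, against 1, 0 and 3 counts in TMRM-low libraries (log2 fold change 4.16, SE 0.970, edgeR adjusted p = 0.0342). Its call was lost in 8 of 14 alternatives, among them each TMRM-high library left out, TMRM-low replicate 1 left out, and the TMRM-high libraries summed. Ifng, which encodes interferon gamma, had 6, 10 and 4 counts in TMRM-high libraries and none in TMRM-low libraries, and was too low to be tested. Both ligands were thus at low counts in every library, and any link between them and the GTPase genes was not tested.

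Among genes that act with the GTPases, calls went in both directions. For comparison, 11.0% of all tested genes were called in either direction. Of 14 tested genes of the ubiquitin-like conjugation and adaptor proteins that place IRG and GBP proteins on vacuoles, 1 was lower, 1 was higher and 12 did not pass, so 14.3% were called. Sqstm1, the autophagy adaptor p62, had 289, 267 and 283 CPM in TMRM-high libraries, against 129, 138 and 140 CPM in TMRM-low libraries (log2 fold change 1.04, SE 0.0733, edgeR adjusted p = 0.000155). It kept its call in every alternative run. Ube2l6, the conjugating enzyme of the interferon-induced modifier ISG15, had 63.3, 59.0 and 55.0 CPM in TMRM-high libraries, against 125, 113 and 144 CPM in TMRM-low libraries (log2 fold change -1.11, SE 0.123, edgeR adjusted p = 0.00142), a call lost by summing the TMRM-high libraries.

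Of 13 tested dynamin-type GTPase genes outside both families, Ehd4, an endocytic recycling gene, was lower (log2 fold change -0.48, SE 0.124, edgeR adjusted p = 0.0483), none was higher and 12 did not pass. Its call was lost in 9 of 15 alternatives, among them each TMRM-high library, TMRM-low replicate 1 or TMRM-low replicate 3 left out. Of 9 inflammasome genes, which act downstream of GBP proteins, 2 were lower, 1 was higher and 6 did not pass, so 33.3% were called. The adaptor gene Pycard (-0.55, SE 0.108) and the cytokine gene Il18 (-1.09, SE 0.269) fell, and the sensor gene Nlrp3 rose (3.44, SE 0.565), with 7.67, 5.85 and 5.90 CPM in TMRM-high libraries, against 0.463, 0.936 and 0.381 CPM in TMRM-low libraries. These 3 calls were lost when any 1 TMRM-high library was left out and when they were summed, that of Il18 also without a low-count filter and with the block.

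Outside the lists, the 5 genes whose levels followed the members most closely were Shisa5, Ube2e2, Oas1a, Apobec3 and Cd74. Likeness was the mean absolute difference, over the 6 libraries, between a gene's centred log2 CPM and the mean of the 9 members, and it was 0.061, 0.084, 0.087, 0.088 and 0.089 in that order. Shisa5, which encodes a protein of the endoplasmic reticulum, had 83.2, 86.5 and 90.6 CPM in TMRM-high libraries, against 213, 216 and 243 CPM in TMRM-low libraries. Oas1a, an antiviral oligoadenylate synthetase gene, had 33.7, 33.3 and 32.2 CPM in TMRM-high libraries, against 82.1, 70.2 and 99.99 CPM in TMRM-low libraries. Apobec3, which encodes a cytidine deaminase that restricts retroviruses, had 124, 134 and 129 CPM in TMRM-high libraries, against 321, 338 and 320.3 CPM in TMRM-low libraries. The groups of each were apart. The genes were selected for this pattern, so no test is given for them.

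Markers of other blood cells moved between the groups as well. For comparison with the counts of markers below, 5.12% of all tested genes were lower and 5.84% were higher. The 10 HSC markers were all detected, with a summed level of 434 to 444 CPM in the TMRM-high and 709 to 818 CPM in the TMRM-low libraries, and 4 of 10 were lower. Of 10 tested natural killer (NK) cell markers 6 were lower and 1 was higher. Their summed level was 562 to 575 CPM in the TMRM-high and 285 to 335 CPM in the TMRM-low libraries, most of it from Nkg7, the marker that was higher. The defining NK marker Ncr1 had 0.635, 0.205 and 0.972 CPM in TMRM-high libraries, against 7.41, 15.8 and 10.3 CPM in TMRM-low libraries. Tbx21 had 15, 5 and 4 counts in TMRM-high libraries and 0 in all TMRM-low libraries, and was too low to be tested. T cell markers summed to 74.2 to 79.0 CPM in the TMRM-high and 170 to 204 CPM in the TMRM-low libraries, with 1 of 4 tested lower. That gene, Cd3d, made up most of each sum. It had 46.3, 50.2 and 43.3 CPM in TMRM-high libraries, against 129, 110 and 141 CPM in TMRM-low libraries.

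Markers of plasmacytoid dendritic cells summed to 200.4 to 208 CPM in the TMRM-high and 294 to 335 CPM in the TMRM-low libraries, with 2 of 7 tested lower and 1 higher. Most of each sum came from the 2 that were lower, Bst2 and Tcf4. Ly6d, the marker that was higher, had 24.9, 24.4 and 25.6 CPM in TMRM-high libraries, against 0.058, 2.31 and 0.980 CPM in TMRM-low libraries. Siglech and Ccr9 were among the 4 that did not pass. Klk1 had 0, 1 and 0 counts in TMRM-high libraries and 0 in all TMRM-low libraries. Of 8 macrophage markers 2 were lower and 1 was higher, with sums of 141 to 149 CPM in the TMRM-high and 83.2 to 96.3 CPM in TMRM-low libraries. Most of the TMRM-high sum came from Vcam1, the marker that was higher. Vcam1 had 91.6, 98.1 and 92.6 CPM in TMRM-high libraries, against 0.636, 1.06 and 0 CPM in TMRM-low libraries. The 2 that were lower were C1qa and C1qb, and 5 did not pass. Granulocyte markers (11664 to 11889 CPM in TMRM-high, 2338 to 2482 CPM in TMRM-low libraries), B lineage markers (470 to 478 CPM in TMRM-high, 41.1 to 45.4 CPM in TMRM-low libraries) and erythroid markers (188 to 209 CPM in TMRM-high, 41.2 to 50.3 CPM in TMRM-low libraries) were higher in 7 of 7, 8 of 8 and 6 of 8 tested genes, in that order, and the B lineage marker Ms4a1 was at 0 in all TMRM-low libraries. Of 6 tested endothelial markers, 1 was lower and 1 was higher, with sums of 198 to 204 CPM in the TMRM-high and 250 to 290 CPM in the TMRM-low libraries, and Plvap was at 0 in all TMRM-low libraries. The part of these markers in the fall of the GTPase genes was not tested.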

How the data were processed

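The deposited table holds estimated counts per gene for 28786 Ensembl IDs, which the authors made with Trim Galore 0.5.0 and Salmon (version listed as 0.03.1) on GRCm38, per the submitters' processing notes. The annotation and the settings of Salmon were not given in the sources used here. Per the labels' protocols, cDNA was amplified by 13 PCR cycles and tagmented, and reads of 150 bases were paired. Such libraries mark no strand and carry no molecular identifiers. In each library 25.2% to 29.1% of values were not whole, and counts were rounded. Salmon divides reads between similar transcripts, so close copies can exchange counts. Symbols were matched for 27728 IDs, and positions and lengths are from GENCODE M21. Genes were filtered with filterByExpr, scaled by TMM and fitted by group with edgeR 4.0.16 (glmQLFit, robust, in R 4.3.3). The fit was checked on simulated data in which each gene had the same spread in both groups. That check cannot show how the test behaves where the groups spread unequally, as they do here. CPM use TMM-scaled sizes. The SE is the log2 fold change divided by the square root of F. Profiles for likeness used log2(CPM + 0.5). Alternatives included DESeq2 1.42.0 and limma 3.58.1 voom.

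The members, lists and alternatives were chosen with earlier results of these data known. Named genes are the members, every called gene of the other family genes, up to 4 called genes with the smallest p in other lists, the 5 most similar profiles and the nearest tested coding neighbours of each cluster; others are marked as chosen after their values were seen. A gene that this rule names in the signalling list is not reported here.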

Additional observations from a re-analysis of the deposited data

How the results depend on the processing

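With the TMRM-high libraries summed into 1, 3 members were lower, in place of 8, and 128 of all tested genes were called, in place of 1498. In the other 16 alternatives 6 to 8 members were lower and none was higher. With 1 library left out, 7 to 8 members and 431 to 2572 genes were called, the fewest without TMRM-high replicate 3 and the most without TMRM-low replicate 3. DESeq2 called 2661 genes, an adjusted p below 0.10 gave 2328, and a minimum of 2-fold gave 734. Summing leaves fewer samples by construction, and the cause of the other shifts was not tested. The members' median log2 fold change stayed between -1.37 and -1.29, less than the spread between libraries away from -1.33. With the replicate number as a block 7 members were lower and 1031 genes were called. Same-numbered libraries did not deviate together (r = -0.0072, 0.012 and 0.012), so the numbers are not taken to pair them. Summing Gbp6 with Gbp10 was not run. No member changed sign past the threshold. Each member had at least 111 counts in a library, and the spread between libraries of a group, as a coefficient of variation, ran from 0.327% for Irgm1 in TMRM-high to 35.3% for Gbp2 in TMRM-low.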
